A study of Mus musculus with 24 samples.

Results

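Cdk4, Cdk6 and Cdk2 encode the protein kinases that carry a cell through G1 and into S phase, and Ccnd1, Ccnd2, Ccnd3, Ccne1 and Ccne2 encode the D and E cyclins that activate them. These 8 genes were taken by name from the 55487 genes of the deposited count table. The rule used names and not values, but earlier results of these data were known when the genes were chosen. Their transcripts were followed by bulk RNA sequencing in the mouse prostate tumour line Myc-CaP, labelled as overexpressing MYC, after 6 days of continuous drug treatment with renewal every 3 days. Of the 7 treatments, 3 were directed at the genes described here or the signals above them: PF-06873600 at 500 nM, which blocks the kinase products of Cdk2, Cdk4 and Cdk6, palbociclib at 1 µM, which blocks CDK4 with CDK6, and T/P. The other 4 were alisertib at 500 nM, a blocker of the mitotic Aurora A kinase, docetaxel at 3.75 µM, a taxane that keeps microtubules from disassembling, etoposide at 500 nM, a topoisomerase II poison that breaks DNA, and Nutlin at 500 nM, which frees p53 from MDM2. Control cells received the solvent DMSO. T/P was read as 25 nM trametinib, an inhibitor of MEK1 and MEK2, together with 1 µM palbociclib, because the protocol lists trametinib and no other label names it. Each of the 8 groups had 3 libraries, all labelled batch 1 and all from this single line. Whether a group's libraries were grown as separate cultures is not labelled, so every p-value reflects library-to-library spread alone, which may be technical.

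In early G1, D cyclins are made in response to growth signals and bind CDK4 and CDK6, which begin to phosphorylate the retinoblastoma protein RB. E cyclins then bind CDK2, which completes that phosphorylation and frees E2F factors. These factors switch on genes of DNA synthesis, and also Ccne1 and Ccne2. The INK4 proteins block CDK4 and CDK6, p21 and p27 bind the cyclin complexes, and the ubiquitin ligase subunit FBXW7 marks cyclin E for breakdown. Cyclin D1 transcription is a classical output of the ERK pathway. The activity of the kinases and the amount of protein were not measured here.

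Library totals were between 21260781 and 28318784 counts in 23 libraries and 69757257 counts in Docetaxel 1. Of the 8 luminal epithelial markers, 4 were at 10 or more CPM (read counts scaled to library size) in DMSO, and the summed level of the list was 1370 to 2400 CPM in all libraries. Summed fibroblast markers lay at 10.6 to 29.6 CPM, with Lum at 0, immune markers at 1.24 to 4.73 CPM and endothelial markers at 0.0883 to 8.23 CPM. The endothelial sum was 7.28 to 8.23 CPM with etoposide, 5.04 to 5.97 CPM with alisertib, 3.62 to 5.12 CPM with docetaxel and 1.48 to 2.91 CPM with PF-06873600, palbociclib and T/P, against 0.199 to 0.539 CPM in DMSO. The fibroblast sum was 28 to 29.6 CPM with alisertib, 26.8 to 28 CPM with docetaxel and 24.9 to 27.7 CPM with PF-06873600, against 13.5 to 22 CPM in DMSO. The luminal sum was 1370 to 1740 CPM with etoposide, against 1900 to 2290 CPM in DMSO. The part of these markers in the results was not tested. In bulk RNA, fewer cells with a transcript and less transcript per cell cannot be told apart. Libraries numbered 2 stood apart: Neat1 and Malat1, noncoding RNAs kept in the nucleus, were lowest in library 2 in 8 of 8 groups. Member calls, and counts of listed genes that move by over 1.5 times, are also given without these libraries where leaving them out changes them.

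On the mouse build mm10 with GENCODE vM21, Cdk4 spans chr10:127063534-127067920 on the plus strand and Cdk2 chr10:128697939-128705031 on the minus strand, both on chromosome 10. Cdk6 spans chr5:3341485-3531008 (plus), Ccnd1 chr7:144929931-144939925 (minus), Ccne1 chr7:38097984-38107534 (minus), Ccnd2 chr6:127125162-127152193 (minus), Ccnd3 chr17:47505051-47599691 (plus) and Ccne2 chr4:11191351-11204779 (plus). All 8 are protein-coding, and counts are over their exons. The upstream sequences of Cdk4 and Cdk2 are shown because both kinase genes fell in several treatments and because they differ in the motifs they hold. They are the 250 bases before the start of each gene in RefSeq, build GRCm38.p6, read 5′ to 3′ on the strand of the gene. The window of Cdk4 is chr10:127063285-127063534 (plus strand) and that of Cdk2 chr10:128705052-128705301 (minus strand). Capitals mark the E-box CACGTG, the core motif of MYC with MAX, in Cdk4, and an E2F motif in Cdk2.
Cdk4: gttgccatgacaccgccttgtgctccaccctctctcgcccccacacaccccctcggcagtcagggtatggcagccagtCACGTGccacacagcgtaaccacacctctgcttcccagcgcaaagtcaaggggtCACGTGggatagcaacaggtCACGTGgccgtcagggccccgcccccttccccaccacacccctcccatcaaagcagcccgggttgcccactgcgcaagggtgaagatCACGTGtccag
Cdk2: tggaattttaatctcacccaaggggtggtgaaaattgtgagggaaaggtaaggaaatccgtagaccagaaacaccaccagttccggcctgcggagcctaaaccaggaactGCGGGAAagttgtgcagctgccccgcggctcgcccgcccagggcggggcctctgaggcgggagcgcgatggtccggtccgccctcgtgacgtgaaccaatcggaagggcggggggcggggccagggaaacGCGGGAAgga

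The Cdk4 window held 4 E-boxes, starting 172, 118, 98 and 11 bases before the gene start. Among 32851 promoter windows of the same 250 bases, 6.02% held at least 1 E-box and 0.0213% held 4 or more. The Cdk2 window held 2 E2F matches, at 140 and 10 bases before the start, searched on either strand as TTCCCGC or as a variant, of which TTGGCGC was one, TTGCCGC was another and TTCGCGC was the last. At least 1 such match was in 7.89% of all windows and 2 or more in 0.776%. The Cdk6 window held 1 E-box, 220 bases before the start. Entries were found for 5 of the 8 genes. The windows of Ccne1 and Ccnd3 held 0 E-boxes and 0 E2F matches. The motifs TTTGAA (CHR) and TGACTCA (AP-1) were also searched and had 0 matches in the windows of all 5 genes. Cdk4 and Cdk2 were picked for the motifs they hold, so the shares of all windows are no test. These matches describe letters and show no binding.

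Some exons are shared with genes on the other strand, and the strand setting of the counting is not given in the sources used here, so reads there cannot be told apart. Ccnd1 shares 1100 exonic bases (23.4% of its exons) with LTO1, Cdk4 641 (19.7%) with Tspan31, Ccne2 609 (17.4%) with Ints8 and Ccnd3 361 (4.11%) with Bysl. LTO1 had a mean of 14.5 CPM over all libraries and Tspan31 71.6 CPM, both well under the gene they overlap. LTO1 was higher with palbociclib (log2 fold change 0.66), alisertib (0.52), docetaxel (0.64) and etoposide (0.72), in which Ccnd1 rose too, and was not called with PF-06873600 (-0.05), T/P (-0.11) or Nutlin (-0.01). Ints8, at 32.5 CPM, was above Ccne2 itself. Against DMSO, Ints8 was lower with alisertib (log2 fold change -0.24) and etoposide (-0.26), while Ccne2 rose with both. Tspan31 fell in 6 of 7 treatments, by 0.30 to 0.63 on the log2 scale.

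Levels of different genes were compared in the deposited TPM (transcript abundance scaled to gene length and library size). As a mean over the 8 groups, Cdk4 stood at 308 TPM and Ccnd1 at 174 TPM. The other expressed members lay far lower, with Ccnd3 at 22.2, Cdk6 at 20.2, Ccne1 at 17, Ccne2 at 14.2 and Cdk2 at 12.8 TPM. Ccnd2, the D cyclin best known from lymphoid and ovarian cells, was at 0.0426 TPM. It had 0 to 9 counts in a library, 81 in all 24 libraries and 0 in 2 of them, and was too low to be tested. The kinase and D cyclin transcripts of these cells were thus mainly Cdk4 and Ccnd1 in every group, and only the E cyclins were shared about evenly between paralogs.

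Cdk4 made up 88.5% ± 1.48 of the summed TPM of the 3 kinases with alisertib, against 92.2% ± 0.858 in DMSO (SD, n = 3 each), and the other groups lay between. Ccnd1 made up 90.4% of D cyclin TPM with etoposide and 83.2% with Nutlin, against 87.1% in DMSO, and Ccnd3 supplied nearly all the rest. Ccne1 made up 62.5% of E cyclin TPM with PF-06873600, 59.5% with T/P and 58.7% with etoposide, against 47.2% in DMSO. The E cyclin transcripts of these 3 groups were thus mainly Ccne1, whereas Ccne2 held 52.8% in DMSO. The remaining groups had a Ccne1 share of 47.1% to 52.8%.

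**Figure D1:**
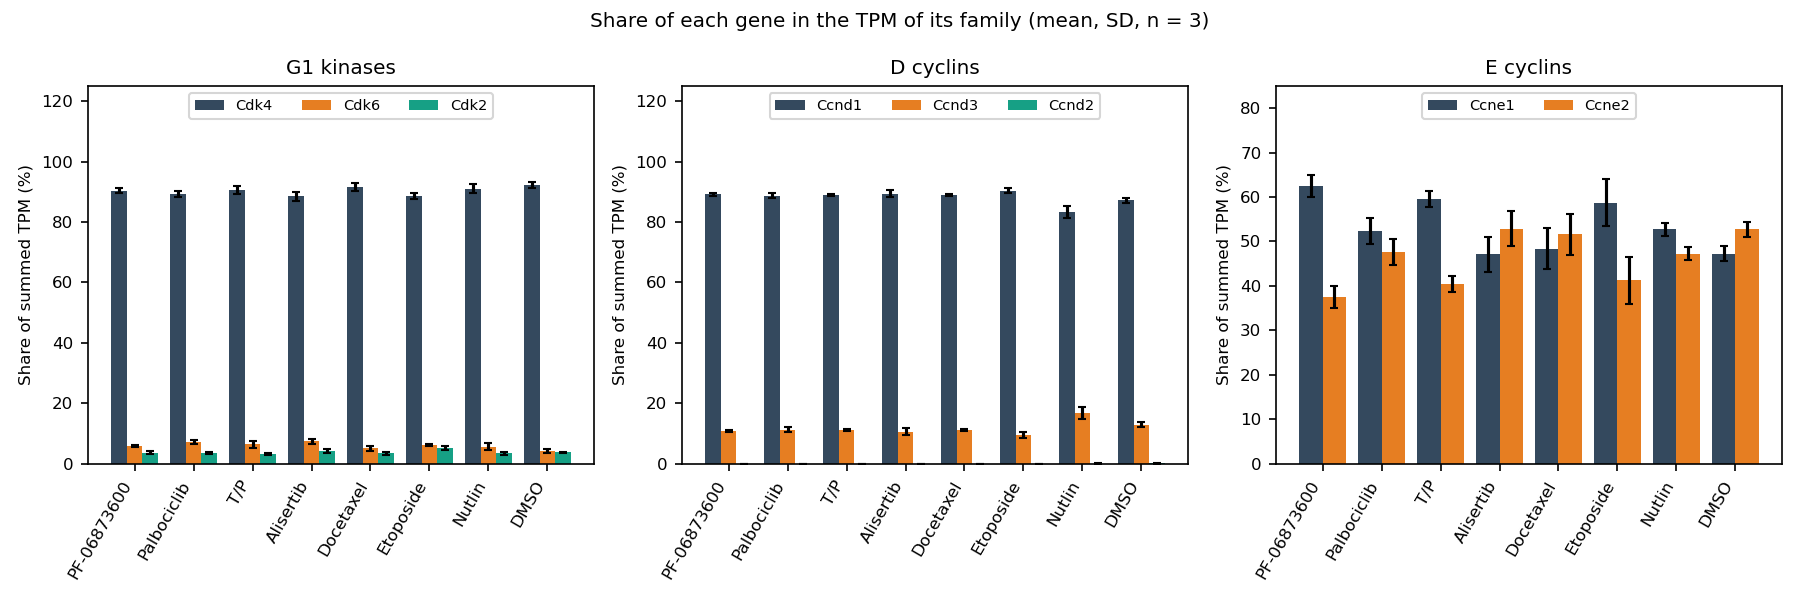
Share of each gene in the summed TPM of its family, in percent, for kinases, D cyclins and E cyclins in 8 groups; bars are means of 3 libraries and whiskers the SD. Cdk4 and Ccnd1 dominate their families in every group, and Ccne1 reaches 62.5% of E cyclin TPM with PF-06873600 against 47.2% in DMSO.

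Cyclin transcripts outpaced those of their kinase partners in 6 of the 7 treatments. The sum of the D cyclins over the sum of Cdk4 and Cdk6, in TPM, was 0.8 ± 0.0664 with etoposide, 0.667 with alisertib, 0.657 with T/P, 0.655 with palbociclib, 0.641 with PF-06873600 and 0.582 with docetaxel, against 0.396 ± 0.0287 in DMSO (SD, n = 3 each). With Nutlin it was 0.397 ± 0.0143. No library of those 6 groups came below 0.574, and no DMSO library came above 0.425. The sum of the E cyclins over Cdk2 followed the same split, at 2.19 to 3.09 as group means in the 6 treatments and 1.42 with Nutlin, against 1.43 ± 0.126 in DMSO. Such ratios within a library do not depend on the scaling between libraries. They were not tested.

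The balance of the D-type kinases also moved. Cdk4 over Cdk6 in TPM was 12.1 ± 1.56 with alisertib and 12.5 ± 1.06 with palbociclib, against 22.6 ± 3.14 in DMSO. It was 14.4 with etoposide, 14.6 with T/P, 15.4 with PF-06873600, 16.7 with Nutlin and 18.3 with docetaxel. The docetaxel libraries (15.5 to 22.2) and the Nutlin libraries (12.9 to 19.8) overlapped the DMSO libraries (19.1 to 25.2), and the other 5 groups did not.

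Against DMSO, the calls of the cyclin genes and Cdk6 were rises, except with Nutlin, where 0 members rose, and the calls of Cdk4 and Cdk2 were falls in every treatment that had one. Ccnd1 and Ccne1 rose in 6 of 7 treatments, Cdk6 in 5, Ccnd3 and Ccne2 in 4. Cdk2 fell in 5 and Cdk4 in 4. Each treatment was tested against the same 3 DMSO libraries with edgeR's quasi-likelihood test, and a gene was called at a Benjamini-Hochberg adjusted p under 0.05 over 15527 genes. The comparisons share these controls, so a high or low DMSO library moves all 7 together.

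With PF-06873600, 5 of the 7 tested members were higher and 0 lower, where 17.9% of all tested genes were called higher and 14.1% lower. With palbociclib 5 were higher and 2 lower (18.5% and 17.4% of all genes), and with T/P 4 and 1 (15.1% and 14.6%). Alisertib gave 4 higher and 2 lower (27.8% and 26.1%), docetaxel 2 and 1 (26.5% and 22.5%) and etoposide 5 and 1 (27.7% and 26.9%). With Nutlin 0 were higher and 4 lower (8.02% and 11.4%). With docetaxel, 3 of 7 members were called where 49% of all genes were, so this count is near the background. The members' median log2 change was 0.46 for PF-06873600, 0.47 for palbociclib, 0.38 for T/P, 0.36 for alisertib, 0.16 for docetaxel, 0.29 for etoposide and -0.31 for Nutlin, where the median of all tested genes was 0 to 0.04. Scaling by total counts in place of TMM shifted the median of all genes by 0.20 to 0.21 for alisertib, docetaxel and etoposide, and raised the share of calls that were higher, for example to 71.8% from 51.5% for alisertib, 78.4% from 54.2% for docetaxel and 71.6% from 50.7% for etoposide. For PF-06873600 that share was 72% in place of 56%, and for palbociclib 65.6% in place of 51.5%. Changes are given relative to the TMM scaling.

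**Figure D2:**
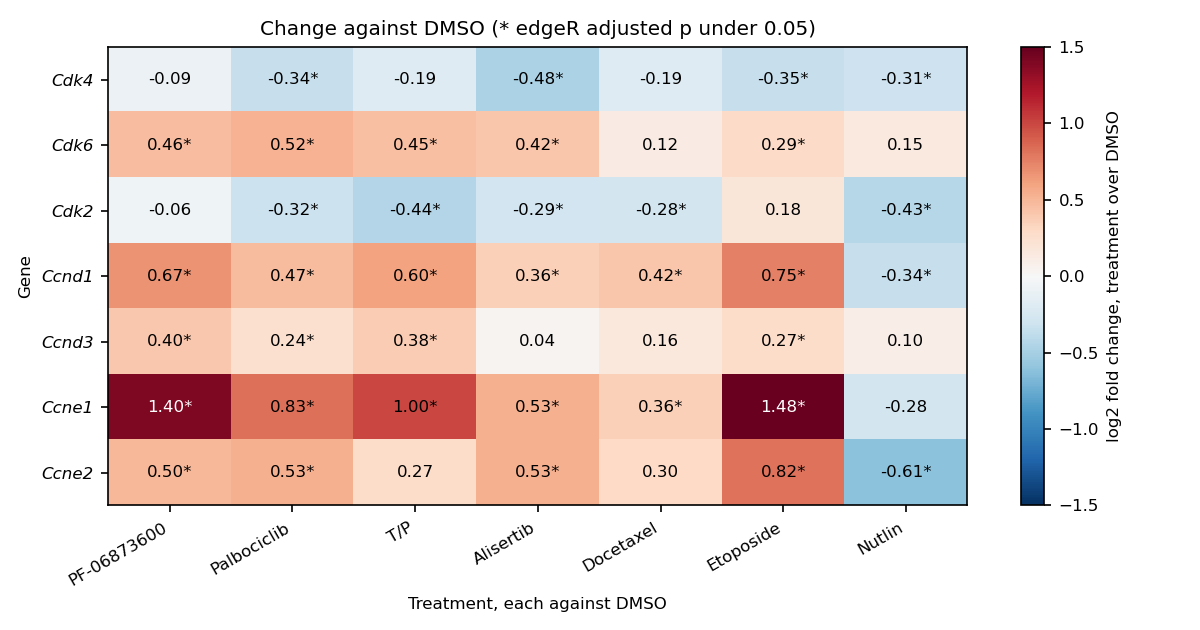
Log2 fold change of 7 genes (rows) in 7 treatments against DMSO (columns), from the edgeR fit; stars mark an adjusted p under 0.05. Ccne1 shows the largest changes, 1.48 with etoposide and 1.40 with PF-06873600, and the Nutlin column is the only one without a starred rise.

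Ccnd1, which encodes cyclin D1, the activator of CDK4 and CDK6 most tied to growth signals, was the member called in every comparison with DMSO. It stood at 325, 327 and 312 CPM in the PF-06873600 libraries and at 316, 358 and 344 CPM in the etoposide libraries, against 194, 211 and 200 CPM in the DMSO libraries. It had 267, 268 and 301 CPM with palbociclib, 311, 311 and 295 CPM with T/P, 247, 270 and 261 CPM with alisertib, and 262, 290 and 255 CPM with docetaxel. In Nutlin libraries it had 151, 172 and 154 CPM. All libraries of the first 6 drugs lay above all DMSO libraries, and all Nutlin libraries lay below them. The rise was 1.68-fold with etoposide (log2 change 0.75 ± 0.0692 standard error, edgeR adjusted p = 3e-09) and 1.59-fold with PF-06873600 (0.67 ± 0.0691, adjusted p = 6.85e-08). It was 0.60 with T/P, 0.47 with palbociclib, 0.42 with docetaxel and 0.36 with alisertib on the log2 scale. With Nutlin Ccnd1 fell by 0.34 ± 0.0693 (adjusted p = 0.000868). Without the libraries numbered 2, all 7 calls stood, with changes of 0.75 for etoposide, 0.67 for PF-06873600 and -0.38 for Nutlin.

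**Figure D3:**
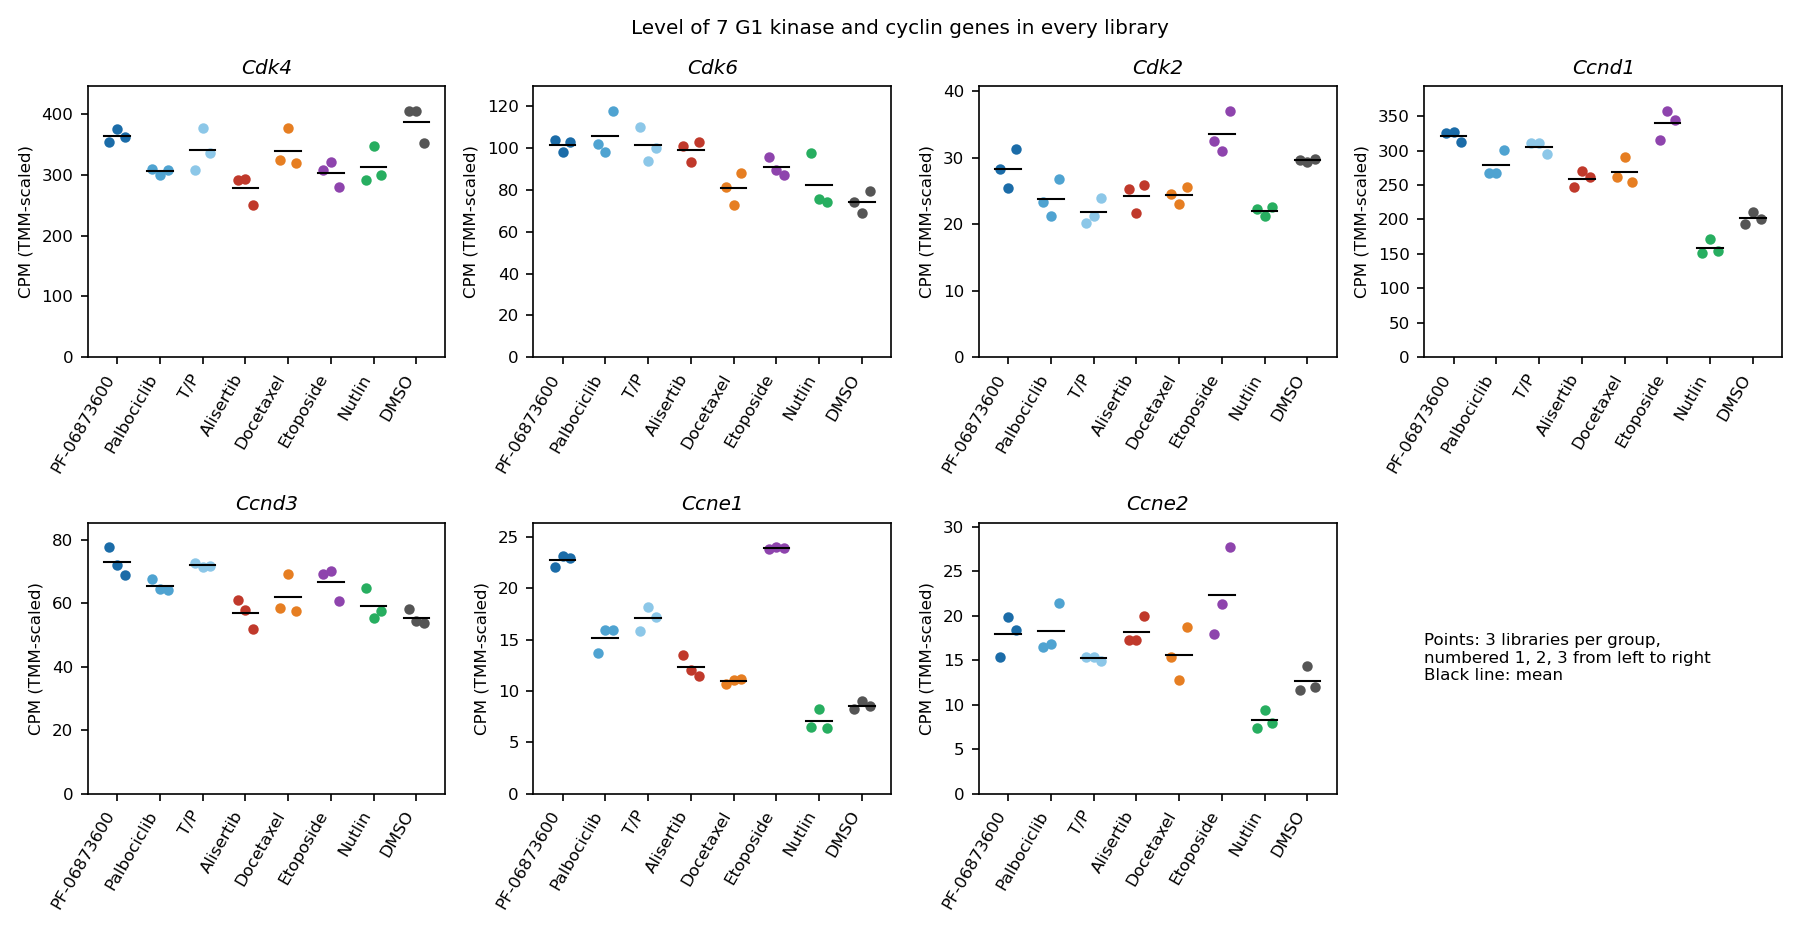
CPM scaled by TMM of 7 genes in each of 24 libraries, with points for libraries 1, 2 and 3 from left to right and a line for the mean; the axes start at 0. Ccnd1 lies at 312 to 358 CPM in the PF-06873600 and etoposide libraries and at 194 to 211 CPM in DMSO, and Ccne1 at 22.1 to 24 CPM against 8.2 to 8.99 CPM.

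Ccnd3, which encodes cyclin D3, rose less and in fewer treatments. It had 77.7, 72 and 69 CPM with PF-06873600 and 72.8, 71.4 and 71.8 CPM with T/P, against 58.1, 54.5 and 53.7 CPM in DMSO. All libraries of both groups lay above the DMSO libraries. The log2 change was 0.40 ± 0.0793 with PF-06873600 (edgeR adjusted p = 0.000434), 0.38 with T/P (0.000756), 0.27 with etoposide (0.00627) and 0.24 with palbociclib (0.0203). The palbociclib call was lost with no low-count filter (0.21, adjusted p = 0.112) and when DMSO 2, DMSO 3, Palbociclib 1 or Palbociclib 2 was left out, at changes of 0.19 to 0.22 (adjusted p of 0.0597 to 0.114). Without the libraries numbered 2 the etoposide change was 0.22 (adjusted p = 0.0606) and the palbociclib change 0.22 (0.0857). The changes with alisertib (0.04), docetaxel (0.16) and Nutlin (0.10) did not pass the test. Under total counts the alisertib change was 0.23 (adjusted p = 0.0113) and the docetaxel change 0.36 (0.000305), so these 2 results depend on the scaling. Bysl, which shares exons with Ccnd3 and stood at 53.3 CPM, was called higher with PF-06873600, docetaxel and etoposide.

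Cdk4, the main D-type kinase of these cells, was lower in 4 treatments. It had 292, 293 and 250 CPM with alisertib, 309, 322 and 280 CPM with etoposide and 310, 300 and 308 CPM with palbociclib, against 406, 405 and 352 CPM in DMSO. All libraries of these groups lay under the lowest DMSO library, DMSO 3. The fall was 1.39-fold with alisertib (log2 change -0.48 ± 0.0886, edgeR adjusted p = 8.27e-05), 1.28-fold with etoposide (-0.35, 0.00168), 1.27-fold with palbociclib (-0.34, 0.00433) and 1.24-fold with Nutlin (-0.31, 0.0162). In Nutlin libraries it had 292, 348 and 300 CPM, and the call was lost without DMSO 1, DMSO 2, Nutlin 1 or Nutlin 3, at changes of -0.24 to -0.27 (adjusted p of 0.0678 to 0.103). Under total counts the etoposide change was -0.14 and was not called (0.0766). PF-06873600 libraries (355, 375 and 363 CPM) lay within the DMSO range, with a change of -0.09 and a 95% interval of -0.27 to 0.09. T/P (-0.19, adjusted p = 0.121) and docetaxel (-0.19, 0.0812) did not pass the test, and under total counts the docetaxel change turned to 0.02 (0.837). Both passed the test when DMSO 3 was left out, at -0.27 (0.037) and -0.28 (0.0188). T/P passed it also without T/P 2, at -0.28 (0.0268), and docetaxel without Docetaxel 2, at -0.27 (0.0217), or without all libraries numbered 2, at -0.25 (0.0268).

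Cdk6, which encodes the other kinase partner of the D cyclins, rose with palbociclib, alisertib and etoposide, where Cdk4 fell. It rose also with PF-06873600 and T/P, where Cdk4 was not called. It had 102, 98.3 and 118 CPM with palbociclib and 104, 98 and 103 CPM with PF-06873600, against 74.1, 69.2 and 79.4 CPM in DMSO. The groups did not overlap. It rose by 0.52 ± 0.095 on the log2 scale with palbociclib (edgeR adjusted p = 0.000187), 0.46 with PF-06873600 (0.00062), 0.45 with T/P (0.000782), 0.42 with alisertib (0.000722) and 0.29 with etoposide (0.0119). The etoposide call was lost without DMSO 2 (0.24, adjusted p = 0.0633) or Etoposide 1 (0.25, 0.0548). The changes of 0.12 with docetaxel and 0.15 with Nutlin did not pass the test. Nutlin 1, at 97.6 CPM, stood apart from Nutlin 2 and 3 at 75.8 and 74.2 CPM. Under total counts the docetaxel change was 0.34 (adjusted p = 0.0166).

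Ccne1, which encodes cyclin E1, the activator of CDK2 at the entry into S phase, showed the largest changes among the members. It had 23.8, 24 and 23.9 CPM with etoposide and 22.1, 23.1 and 22.9 CPM with PF-06873600, against 8.2, 8.99 and 8.49 CPM in DMSO. These treated libraries lay at over 2 times the highest DMSO library. The rise was 2.79-fold with etoposide (log2 change 1.48 ± 0.0936, edgeR adjusted p = 5.09e-12) and 2.65-fold with PF-06873600 (1.40 ± 0.0938, 7.56e-11). Ccne1 also had 15.8, 18.2 and 17.2 CPM with T/P, 13.7, 15.9 and 15.9 CPM with palbociclib, 13.5, 12 and 11.5 CPM with alisertib, and 10.7, 11.1 and 11.2 CPM with docetaxel. All 12 of these libraries lay above the DMSO libraries. The rises were 2-fold with T/P (1.00), 1.77-fold with palbociclib (0.83), 1.44-fold with alisertib (0.53) and 1.28-fold with docetaxel (0.36, adjusted p = 0.00308). In Nutlin libraries it had 6.53, 8.23 and 6.36 CPM, a change of -0.28 that missed the threshold (adjusted p = 0.0538). Without Nutlin 2 that change was -0.41 (0.00539), and it was called also under total counts (-0.29, 0.0325) and without all libraries numbered 2 (-0.39, 0.0462).

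Ccne2, which encodes cyclin E2, rose in 4 treatments with wider spread. It had 17.9, 21.3 and 27.7 CPM with etoposide and 17.3, 17.3 and 20 CPM with alisertib, against 11.6, 14.3 and 12 CPM in DMSO. The groups did not overlap. The log2 change was 0.82 ± 0.151 with etoposide (edgeR adjusted p = 7.28e-05), 0.53 with alisertib (0.00541), 0.53 with palbociclib (0.00953) and 0.50 with PF-06873600 (0.0137). The PF-06873600 call was lost without DMSO 1 (0.41, adjusted p = 0.0867), DMSO 3 (0.43, 0.0799) or PF-06873600 2 (0.38, 0.107). The palbociclib call was lost without DMSO 1 (0.44, 0.0592), DMSO 3 (0.46, 0.0508) or Palbociclib 3 (0.40, 0.0762). The changes with docetaxel (0.30, 0.104) and T/P (0.27, 0.205) did not pass the test, and docetaxel passed it without Docetaxel 2 (0.41, 0.0353), without all libraries numbered 2 (0.49, 0.0264) and under total counts (0.52, 0.00957). With Nutlin the libraries had 7.37, 9.4 and 7.99 CPM, all below DMSO, and Ccne2 fell by 0.61 ± 0.162 (0.00921). That call was lost without DMSO 2 (-0.51, 0.0675) or Nutlin 1 (-0.52, 0.0649).

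Cdk2, which encodes the kinase partner of the E cyclins, was lower in 5 treatments. It had 22.3, 21.3 and 22.6 CPM with Nutlin and 20.2, 21.3 and 23.9 CPM with T/P, against 29.6, 29.4 and 29.8 CPM in DMSO. All 6 treated libraries lay below the DMSO libraries, which were closer together for Cdk2 than those of any other group. The fall was 1.36-fold with T/P (log2 change -0.44 ± 0.0958, edgeR adjusted p = 0.00103) and 1.34-fold with Nutlin (-0.43, 0.00258). It fell by 0.32 with palbociclib (0.0125), 0.29 with alisertib (0.0138) and 0.28 with docetaxel (0.0162). Those 3 calls rest on the scaling, since under total counts the changes were -0.22 (0.128), -0.09 (0.527) and -0.07 (0.616). Without the libraries numbered 2 the palbociclib change was -0.27 (0.064) and the alisertib change -0.22 (0.08), neither called. The 3 calls were also lost without Palbociclib 2 (-0.27, 0.0539), Alisertib 2 (-0.21, 0.0946) or Docetaxel 2 (-0.25, 0.0565). In the etoposide libraries Cdk2 had 32.5, 31.1 and 37.1 CPM, all above DMSO, a change of 0.18 (adjusted p = 0.11) that was called with the replicate block (0.0262) and under total counts (0.39, 0.00482). With PF-06873600 it had 28.3, 25.4 and 31.3 CPM, around the DMSO values, and a change of -0.06 with a 95% interval of -0.26 to 0.13, which turned to 0.03 under total counts (adjusted p = 0.883).

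Within groups, some members moved with the library number. Cdk2 was highest in library 3 in 8 of 8 groups and lowest in library 2 in 7 of 8, and Cdk6 was lowest in library 2 in 6 of 8. Ccne1 and Ccne2 were lowest in library 1 in 6 of 8 groups each, and Ccnd3 was lowest in library 3 in 6 of 8. Cdk4 and Ccnd1 were highest in library 2 in 6 of 8 groups. The median difference of library 2 from the mean of libraries 1 and 3, on the log2 scale, was -0.14 for Cdk2, -0.16 for Cdk6, 0.12 for Cdk4 and 0.10 for Ccnd1, beside -1.81 for Neat1 and -0.64 for Malat1. The part of this in the results was not tested beyond leaving out single libraries, all libraries numbered 2, or adding a replicate block.

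**Figure D4:**
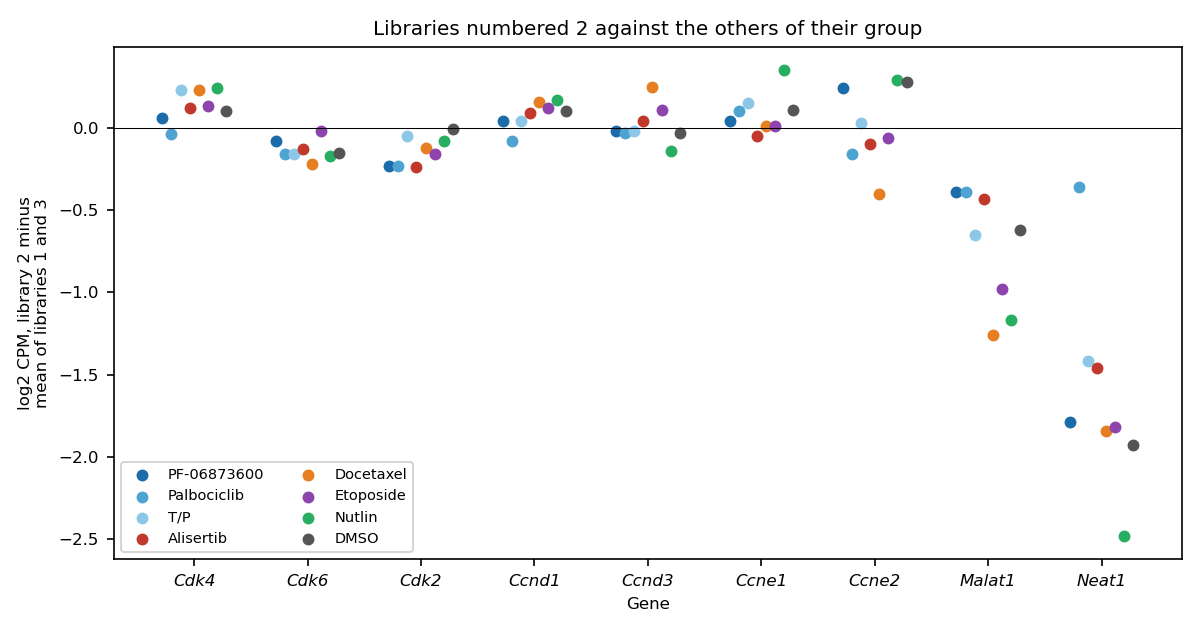
Log2 CPM of the library numbered 2 minus the mean of libraries 1 and 3, for 7 members and the nuclear RNAs Malat1 and Neat1, with 1 point per group. Cdk2 and Cdk6 points all lie below 0 (down to -0.24 and -0.22), as do those of Malat1 and Neat1 (down to -1.26 and -2.48).

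The order of the groups in TPM was headed by etoposide for Ccnd1 (233 TPM), Ccne1 (29), Ccne2 (20.8) and Cdk2 (17.5), and closed by Nutlin for these genes and for Cdk4 (265). The highest group mean was 3.99 times the lowest for Ccne1, 3.2 times for Ccne2, 2.51 times for Ccnd1, 1.79 times for Cdk2, 1.6 times for Cdk6, 1.42 times for Ccnd3 and 1.3 times for Cdk4. For Ccne1 the order was etoposide, PF-06873600, T/P, palbociclib, alisertib, docetaxel, DMSO and Nutlin, and the same in CPM. In the edgeR fit of the counts, neighbours in it differed for PF-06873600 over T/P (adjusted p = 0.00295, where 12.3% of all genes were called), palbociclib over alisertib (0.0133, 36.4%) and docetaxel over DMSO (0.00308). The other 4 pairs did not pass the test. For Ccnd1, palbociclib over DMSO (1.35e-05), DMSO over Nutlin (0.000868) and T/P over docetaxel (0.0372, at 189 TPM in both, with 38.3% of all genes called) differed. For Ccnd3, T/P over docetaxel (0.0292) and palbociclib over alisertib (0.0484) differed, and for Cdk2, etoposide over PF-06873600 (0.049, with 32.6% of all genes called between these drugs) and DMSO over alisertib (0.0138), at 13.2 TPM with alisertib and 13.4 TPM in DMSO. For Cdk4 and Cdk6 no neighbours passed that test, and only 2 of the 8 groups kept their rank in CPM. Cdk2 also kept only 2 of the 8 ranks. In CPM the lowest group was T/P for Cdk2 and alisertib for Cdk4. For Ccne2 only DMSO over Nutlin differed (0.00921).

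PF-06873600 and palbociclib both inhibit CDK4 and CDK6, and the first also CDK2. Their doses differ, 500 nM and 1 µM, so values are set side by side. Of 7 tested members 3 were higher with PF-06873600 and 0 lower, where 14.4% of all genes were higher and 11.7% lower. Ccne1 averaged 22.7 ± 0.519 CPM with PF-06873600 and 15.2 ± 1.26 CPM with palbociclib (SD, n = 3 each), with no overlap, a log2 difference of 0.58 ± 0.0897 (edgeR adjusted p = 6.48e-05). Cdk4 averaged 364 CPM with PF-06873600 and 306 CPM with palbociclib (0.25, 0.0385). Ccnd1 averaged 321 CPM with PF-06873600 and 279 CPM with palbociclib (0.21, 0.0302). Without the libraries numbered 2 these calls were lost for Cdk4 (0.21, 0.112) and Ccnd1 (0.16, 0.184). The Cdk4 call was lost without any single library of either drug (0.22 to 0.26, adjusted p of 0.0648 to 0.132), and the Ccnd1 call without PF-06873600 1 or 2 or Palbociclib 1 or 2 (0.17 to 0.19, adjusted p of 0.0948 to 0.144). Cdk2 differed by 0.25 (adjusted p = 0.0549), and was called without PF-06873600 2 (0.31, 0.04) or Palbociclib 3 (0.35, 0.0202). Cdk6 (-0.06, 95% interval -0.25 to 0.14) and Ccne2 (-0.02, -0.33 to 0.29) did not pass the test.

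Between T/P and palbociclib, which share the palbociclib dose, 0 of 7 members were called, where 4.1% of all genes were, 1.64% higher and 2.47% lower. At an unadjusted p under 0.05 none of the 7 was called, and none was called by DESeq2 or by limma on TPM. The Ccne1 difference was 0.17 with a 95% interval of -0.02 to 0.36, and the Ccnd1 difference 0.13 (-0.01 to 0.28). Ccne2 had 15.4, 15.4 and 14.9 CPM with T/P, all below its 16.5, 16.8 and 21.4 CPM with palbociclib, a difference of -0.26 (-0.57 to 0.06).

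Docetaxel and alisertib both act on mitosis, at 3.75 µM and 500 nM. Of 7 members 1 was higher with docetaxel (8.62% of all genes) and 1 lower (8.81%). Cdk4 averaged 340 ± 31.8 CPM with docetaxel and 278 ± 24.6 CPM with alisertib (log2 difference 0.29, edgeR adjusted p = 0.0245), and Cdk6 80.9 CPM with docetaxel and 99.2 CPM with alisertib (-0.29, 0.0325). Neither call stood without the libraries numbered 2 (0.24, adjusted p = 0.093, and -0.28, 0.0898), without Alisertib 3 (0.22, adjusted p = 0.156, and -0.27, 0.112) or without Docetaxel 2 (0.21, 0.156, and -0.23, 0.156). The Cdk6 call was lost also without Alisertib 1 (-0.28, 0.0768) or Docetaxel 1 (-0.30, 0.08). Ccnd1 differed by 0.05, with a 95% interval of -0.09 to 0.20.

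Etoposide gave higher levels than docetaxel for 4 of 7 members and lower for 0, where 14.2% of all genes were higher and 16.2% lower. Ccne1 averaged 23.9 ± 0.104 CPM with etoposide and 11 ± 0.253 CPM with docetaxel, a 2.17-fold difference (log2 1.12 ± 0.0897, edgeR adjusted p = 3.72e-09). Cdk2 differed by 0.46 (0.000568) and Ccnd1 by 0.33 (0.000647), each with no overlap. Ccne2 differed by 0.52 (0.00936), with overlapping libraries, and was not called without Docetaxel 2 (0.40, 0.0566) or Etoposide 3 (0.33, 0.103).

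The other genes of the pathway were taken from lists of known members. The E2F targets of G1/S, which act downstream of cyclin E and CDK2, were mostly higher in 4 treatments and more often lower than higher in the other 3. All 18 listed genes were higher with PF-06873600 (median log2 change 0.64) and with etoposide (1.23), 17 with alisertib (0.75) and 14 with docetaxel (0.48, 1 lower), where the median of all genes was 0.02 to 0.04. Of all tested genes, 17.9% were higher with PF-06873600, 27.7% with etoposide, 27.8% with alisertib and 26.5% with docetaxel. With palbociclib 1 of the 18 was higher and 8 lower (median -0.29), where 18.5% and 17.4% of all genes were. With T/P 0 of the 18 were higher and 5 lower (median -0.13), where 15.1% and 14.6% of all genes were. Beside this, Ccne1 rose 1.77-fold with palbociclib and 2-fold with T/P. Cdc6, a replication licensing factor, changed by 1.24 with PF-06873600, and Mcm5, a helicase subunit, by -0.55 with palbociclib. With Nutlin all 18 were lower (median -1.08), where 11.4% of all genes were, among them Rrm2, a subunit of ribonucleotide reductase, by 1.51. Between PF-06873600 and palbociclib all 18 were higher with PF-06873600, where 14.4% of all genes were, with a median of 0.84 against 0.01 for all genes.

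**Figure D5:**
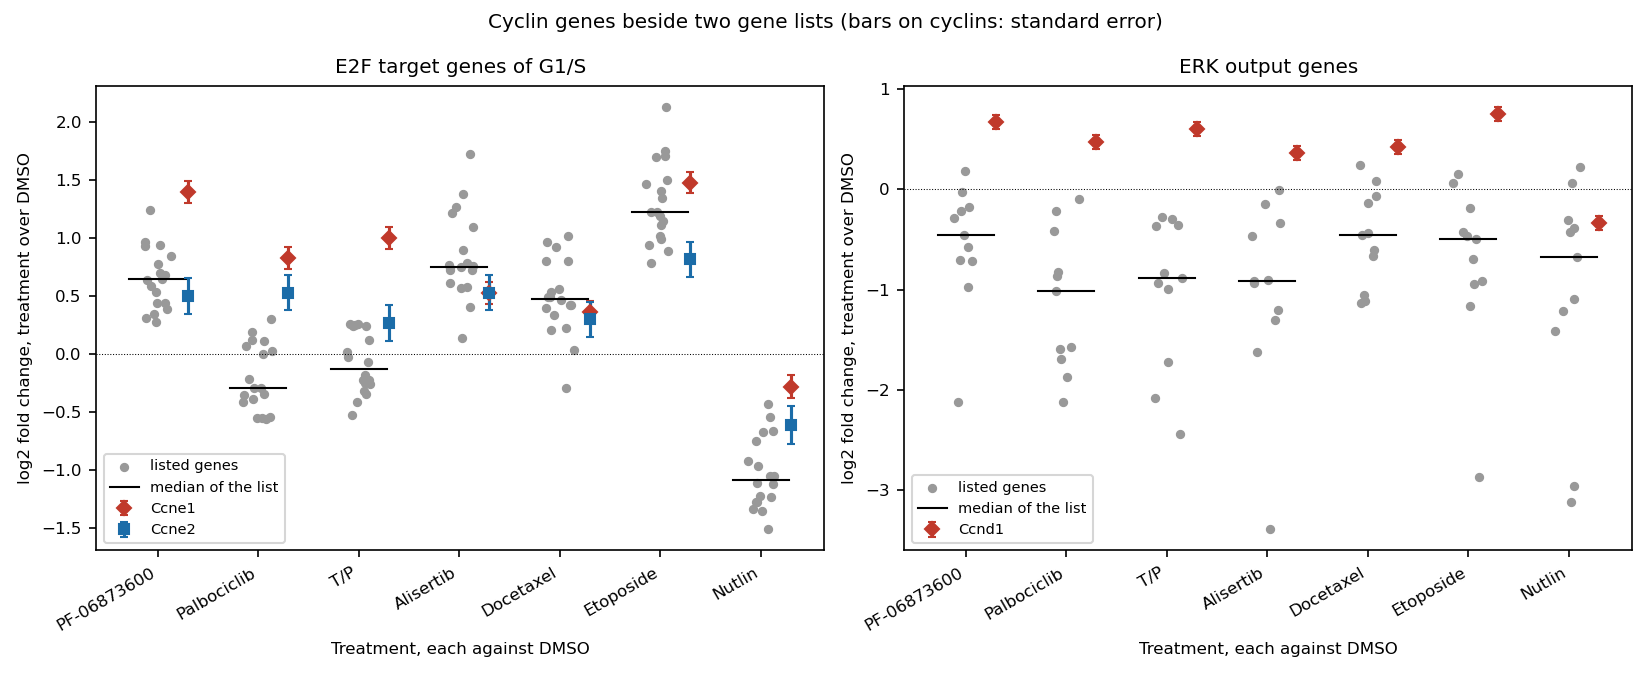
Log2 fold change against DMSO in 7 treatments for 18 E2F targets of G1/S beside Ccne1 and Ccne2 (left), and for 11 ERK output genes beside Ccnd1 (right); grey points are listed genes, black lines their median and whiskers the standard error. With palbociclib Ccne1 stands at 0.83 and the E2F target median at -0.29, and Ccnd1 stands above the ERK output median in all 7 treatments.

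ERK output genes were mostly lower in each treatment, Ccnd1 being higher in 6 of the 7. The list holds feedback regulators and ETS factors that follow ERK activity, and also Egr1, Fosl1, Phlda1 and Ier3. Of 11 tested genes, 0 were higher in any treatment, where 8.02% to 27.8% of all genes were. With T/P 11 were lower (14.6% of all genes), with palbociclib 10 (17.4%), with alisertib 9 (26.1%) and with etoposide 9 (26.9%). With Nutlin 8 were lower (11.4%), with PF-06873600 7 (14.1%) and with docetaxel 7 (22.5%). The median log2 change was -1.01 with palbociclib, -0.91 with alisertib, -0.88 with T/P, -0.67 with Nutlin, -0.50 with etoposide, -0.46 with PF-06873600 and -0.46 with docetaxel. Etv4, an ETS factor, changed by -2.12 with palbociclib and -2.44 with T/P, beside Ccnd1 changes of 0.47 with palbociclib and 0.60 with T/P. Nutlin was the 1 treatment with a fall of both Ccnd1 (-0.34) and Etv4 (-3.12). Between T/P and palbociclib 3 of the 11 were higher and 1 lower with T/P (1.64% and 2.47% of all genes), with a median of -0.06. Egr1 was higher by 0.88 and Fosl1 by 0.86, and Etv5 was lower by 0.51. Without the libraries numbered 2, 2 of the 11 were called in place of 4.

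Among the CDK inhibitors, which act on the kinases described here, 2 or 3 of 7 were higher and 3 or 4 lower in each treatment. Of all tested genes, 8.02% (Nutlin) to 27.8% (alisertib) were higher and 11.4% (Nutlin) to 26.9% (etoposide) lower. The 2 of 7 higher with alisertib are near its background share. Cdkn1a, which encodes p21, was higher in 7 of 7, by 0.21 with palbociclib to 1.40 with etoposide. Cdkn2b, which encodes the CDK4 and CDK6 inhibitor p15, was also higher in all 7, at 0.48 to 1.05. Cdkn1b, which encodes p27, was lower in 6, by 0.21 to 0.56, and Cdkn2c, which encodes p18, was lower in 7. Cdkn1c, which encodes p57, had the largest falls of the list, at -4.06 to -1.93 in 7 of 7 treatments. Its level was low throughout, with a mean of 0.723 CPM in DMSO. Cdkn2a was called in 1 treatment, lower with alisertib (-0.31).

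Rb1 was called in none of the 7 treatments, at changes of -0.12 to 0.14, and Rbl2, which encodes the related p130, fell in 6, by 0.40 to 1.04. E2f1 rose with etoposide (1.36), alisertib (0.95), PF-06873600 (0.76) and docetaxel (0.75), and its changes with palbociclib (0.17) and T/P (0.15) did not pass the test. Of the 14 pocket protein and E2F genes, 10 were higher with alisertib (27.8% of all genes), 10 with etoposide (27.7%) and 8 with PF-06873600 (17.9%). Docetaxel gave 6 (26.5%), T/P 4 (15.1%), palbociclib 3 (18.5%) and Nutlin 0 (8.02%). Lower were 6 with Nutlin (11.4%) and 3 each with palbociclib (17.4%), T/P (14.6%), alisertib (26.1%) and docetaxel (22.5%). Etoposide gave 2 lower (26.9%) and PF-06873600 1 (14.1%). Falls with alisertib, docetaxel, etoposide and PF-06873600 were thus no more frequent than over all genes. E2f7, a repressor among the E2F factors, changed by 1.52 with etoposide and -1.18 with Nutlin.

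Fbxw7, whose product marks cyclin E for breakdown, was lower in 6 treatments, by 0.90 with palbociclib, 0.92 with PF-06873600, 1.07 with docetaxel, 1.20 with T/P, 1.49 with alisertib and 1.76 with etoposide. With Nutlin its change of 0.16 did not pass the test. Ccne1 changed by -0.28 there and rose in the other treatments. These are transcript levels, whereas FBXW7 acts on cyclin E protein, which was not measured. A link between the 2 genes was not tested. Cryab, which encodes a small heat shock protein linked to cyclin D1 turnover, was higher in 7 of 7, at 0.94 with Nutlin to 3.52 with etoposide. Skp2, whose product marks p27, rose with etoposide (0.35) and fell with Nutlin (-0.61). Of the 10 genes of this list 4 were higher with etoposide (27.7% of all genes), 3 with docetaxel (26.5%) and 2 with alisertib (27.8%). With PF-06873600 (17.9%), palbociclib (18.5%), T/P (15.1%) and Nutlin (8.02%) 2 each were higher. Lower were 5 with etoposide (26.9%), 4 with alisertib (26.1%), and 3 each with docetaxel (22.5%), palbociclib (17.4%) and T/P (14.6%). Nutlin gave 2 lower (11.4%) and PF-06873600 1 (14.1%). The rises, other than those with etoposide and Nutlin, and the PF-06873600 fall were near or under the share over all genes. The medians were -0.10 to 0.06.

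Among the later cyclins, Cdk1 and their partners, the direction differed between treatments. Of 7 tested genes 7 were higher with alisertib (27.8% of all genes), 7 with etoposide (27.7%), 4 with docetaxel (26.5%) and 3 with PF-06873600 (17.9%). Lower were 5 with palbociclib (17.4%), 3 with T/P (14.6%) and 7 with Nutlin (11.4%). Without the libraries numbered 2, 5 were called with PF-06873600 and 5 with T/P, and the replicate block gave 5 with PF-06873600. Under total counts 7 were called with docetaxel. Ccnb1, the mitotic cyclin B1, changed by 1.08 with etoposide, -0.77 with palbociclib and -1.73 with Nutlin. Among 8 activating enzymes and their opponents, Cdc25b, a CDK phosphatase, rose by 1.24 with alisertib and fell by 1.08 with Nutlin, whereas Cdk7, the kinase that activates CDKs, was called in no treatment (-0.19 to -0.01). Of the 8, 5 rose with etoposide (27.7%), 4 each with alisertib (27.8%) and docetaxel (26.5%), 3 with PF-06873600 (17.9%) and 1 with palbociclib (18.5%). With palbociclib 3 were lower (17.4%), with Nutlin 3 (11.4%) and with T/P 1 (14.6%). The palbociclib count of 4 called was 2 under total counts and 2 without the libraries numbered 2.

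Of 14 other G1-type cyclins and CDKs, 7 were lower with alisertib, where 26.1% of all genes were, 7 with etoposide (26.9%), 6 with docetaxel (22.5%), 4 with PF-06873600 (14.1%), 4 with T/P (14.6%), 3 with Nutlin (11.4%) and 1 with palbociclib (17.4%). Higher were 4 with palbociclib (18.5%), 3 with alisertib (27.8%), 1 each with T/P (15.1%), docetaxel (26.5%) and etoposide (27.7%), and 0 with PF-06873600 and Nutlin. With PF-06873600 the 4 called were 2 under total counts. Ccni, which encodes cyclin I, fell in 7 of 7 treatments, by 0.28 to 0.99. Of 11 tested p53 targets, 7 were higher with docetaxel, where 26.5% of all genes were, 6 with alisertib (27.8%), 5 with T/P (15.1%), 4 with PF-06873600 (17.9%), 4 with palbociclib (18.5%) and 4 with etoposide (27.7%). Lower were 4 each with alisertib (26.1%) and etoposide (26.9%), and 3 each with palbociclib (17.4%) and docetaxel (22.5%). With PF-06873600 (14.1%) and T/P (14.6%) 1 each was lower. The PF-06873600 and T/P counts of falls are under the share over all genes, and the docetaxel count is near it. With Nutlin 4 were higher (8.02% of all genes), including Mdm2 (0.41) and Sesn2 (0.83), 0 were lower and 7 not called, beside a rise of Cdkn1a by 0.33. These rises were not particular to Nutlin: Sesn2 was higher in 7 of 7 treatments and Mdm2 in 5 of 7.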

How the data were processed

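Total RNA of 24 libraries, 8 groups of 3, was sequenced. Per the submitters' processing notes the authors used fastp, STAR, featureCounts, DESeq2 and build mm10; versions and strand are not given in the sources used here. The deposited count table holds raw counts per gene, and the deposited TPM table holds TPM for 24621 genes.

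Counts were fitted in R 4.3.3 with edgeR 4.0.16 (quasi-likelihood, TMM, 1 mean per group, 16 residual degrees of freedom) after filterByExpr (minimum count 10, minimum total 15). It kept 15527 genes holding 99.9% of counts. Tests are two-sided, with Benjamini-Hochberg adjustment over these genes. CPM use TMM library sizes. Precision is set by 0 to 24878 counts per member and library. The pipeline was tested on simulated counts, drawn with the same dispersion for every gene and with changes in the Nutlin libraries only. That setting is simpler than these data, so it checks the code and not the results. Libraries of a group differed beyond sampling noise (chi-square per degree of freedom 2.67 to 44.1), so none was a copy.

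Members and gene lists were chosen with earlier results of these data known. Named list genes were up to 2 rises and 2 falls per list and comparison, plus Cdkn1a, Cdkn1b, Cdkn2a, Rb1 and E2f1. Cdk7, the Skp2 and Ccnb1 changes with etoposide, the E2f7 change with Nutlin, and those Ccni and Cdkn2c falls that were not among the largest, lie outside that rule and were chosen after their values were seen. Same-numbered libraries deviated together (r above 0.1 in all pairs) in 5 of 11 comparisons, with r from -0.02 to 0.54 overall; the labels do not pair them. Alternatives were RLE, total counts, DESeq2 1.42.0, other filters, 2-group fits, a replicate block, leaving out libraries and limma 3.58.1 on log2(TPM + 1).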

Additional observations from a re-analysis of the deposited data

How the results depend on the processing

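Over all alternatives, 1059 of 1155 recomputed member changes kept their side of the threshold, 61 lost a call and 35 gained one. No call turned into a call in the other direction. Changes that were not called could switch sign, as for Cdk2 with PF-06873600 against DMSO (-0.06, and 0.03 under total counts). For docetaxel against DMSO (3 members called), total counts gave 5, the replicate block 6, leaving out all libraries numbered 2 gave 5 and limma on log2(TPM + 1) gave 5. For PF-06873600 against palbociclib (3 called), leaving out the libraries numbered 2 gave 1. For docetaxel against alisertib (2 called), total counts, the 2-group fit and limma gave 1 each and leaving out the libraries numbered 2 gave 0. Leaving out 1 library at a time gave 2 to 5 for Nutlin, 1 to 3 for PF-06873600 against palbociclib and 0 to 2 for docetaxel against alisertib; the cause was not tested. With CPM in place of TPM the same rank was held by 2 of 8 groups for Cdk2, Cdk4, Cdk6 and Ccnd3, and by 5 for Ccnd1. The replicate block changed no call against DMSO other than those of Cdk2 with etoposide, Ccne1 with Nutlin, Cdk4 with T/P (0.0278) and, with docetaxel, Cdk4 (0.0163), Ccnd3 (0.05) and Ccne2 (0.0387); it also called Cdk2 between PF-06873600 and palbociclib (0.00561). With T/P against DMSO the block called 8 E2F targets in place of 5, 5 later cyclin genes in place of 3 and 2 CDK activating enzymes in place of 1, and with docetaxel 11 other G1-type genes in place of 7. Genes called in T/P against palbociclib were 637, and 2504 with the replicate block, 1181 without a filter, 1165 in the 2-group fit, 1142 by DESeq2, 411 without libraries numbered 2, 317 by limma and 154 to 249 without T/P 2 or a palbociclib library. For Nutlin against DMSO they were 3011, and 1699 in the 2-group fit and 2002 without Nutlin 1. For docetaxel against alisertib they were 2707, and 1804 without Alisertib 3. Counts below about 10 per library, as for Ccnd2, allow no fold.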

Other observations

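Genes whose level followed each member most closely over the 8 group means were listed as a description, among 8660 genes at 10 CPM or more, where the points share libraries and scaling. For Ccnd1 they were Hars, a tRNA synthetase gene (Pearson r = 0.983), and Nudcd3 (0.979), and for Ccne1 Tceal9 (0.962) and Cib2 (0.958). For Cdk4 they were Prmt7, a protein arginine methyltransferase gene (0.989), and Rab1b, a GTPase gene of vesicle traffic (0.985), and for Cdk6 Tpp2, a peptidase gene (0.987), and Trp53inp2 (0.967). For Ccne2 they were Eif2ak2, which encodes the RNA-sensing kinase PKR (0.977), and Ap2a2 (0.973), for Ccnd3 Spcs1 (0.944) and Cdipt (0.943), and for Cdk2 Grk2 (0.962) and Hirip3 (0.947). Eif2ak2 lay at 41.1 CPM with etoposide and 18.8 CPM with Nutlin. Among the members themselves, Ccnd1 and Ccne1 had r = 0.94 and Ccnd1 and Ccne2 r = 0.92 over the 8 groups, while Cdk4 and Cdk6 had r = -0.42.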
